A study of Mus musculus with 4 samples.

Results

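Corticosteroid signalling in the adult mouse hippocampus was followed through 7 genes: the receptors Nr3c1 and Nr3c2, the enzyme gene Hsd11b1, the receptor co-chaperone gene Fkbp5, and the hormone-induced genes Sgk1, Tsc22d3 and Per1. They were listed by name, with no threshold on a measured value, but with earlier results of these data known. All 7 were found by Ensembl identifier among the 55422 genes counted. Single-nucleus RNA libraries had been made from the hippocampus of adult mice in 2 groups of 2 libraries, Control and Kat6a-cKO. Mice of both groups carried the floxed alleles of the histone acetyltransferase gene Kat6a (Kat6a-f/f), so no group has wild-type alleles. The Kat6a-cKO mice also carried NEX-cre, a Cre recombinase driven from the Neurod6 locus that is active in forebrain excitatory neurons, so that presence of Cre and loss of Kat6a cannot be told apart. Sex, exact age, time of day and number of mice behind each library are not given in the sources used here, and p-values therefore measure the spread between libraries, which may be technical.

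Corticosterone, the main glucocorticoid of mice, enters cells and binds 2 nuclear receptors. The mineralocorticoid receptor binds it with the higher affinity and is known for its abundance in hippocampal neurons, while the glucocorticoid receptor is found in nearly all cell types and is occupied mainly at the daily peak and in stress. The hormone-bound receptors enter the nucleus and bind glucocorticoid response elements, and the FKBP51 protein encoded by Fkbp5 lowers the affinity of the glucocorticoid receptor for hormone, closing a negative feedback loop.

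The 4 libraries held 171323466 to 186897245 counts of unique molecular identifiers (UMIs, each standing for 1 captured RNA molecule). Clustering without the 7 genes placed 35281 nuclei in 15 marker-named classes, with 8795 and 8658 nuclei in the Control libraries and 9383 and 8445 in the Kat6a-cKO libraries. In 12 classes every library had at least 30 nuclei, and these were compared. Pairs of libraries shared 27 to 35 barcodes. Over all named nuclei the targeted gene Kat6a stood at 84.9 and 84.7 counts in 1000000 (CPM) in the Control libraries and 79.6 and 78.9 in the Kat6a-cKO libraries, and it passed the test in 0 of 12 classes (log2 fold changes −0.16 to 0.21, smallest edgeR adjusted p = 0.737). The counts cover the whole gene, not the deleted part, so they do not check the deletion. Counts for Cre were 0 and 0 in the Control libraries and 130 and 136 in the Kat6a-cKO libraries. The latter were uneven over classes, with 59 and 58 in CA1-like and 39 and 54 in CA3-like neurons. Hilar mossy-like neurons held 10 and 4, deep-layer excitatory-like 9 and 3, and CA2-like and dentate granule-like 5 and 6 each. Immature granule-like, inhibitory neuron-like and compared glial classes held 0 to 2 per library. These counts do not show in which classes the deletion took place.

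Levels are given as CPM, the UMIs of a gene scaled to the total UMIs of all genes, after summing over the nuclei of a class in a library. Values of the 4 libraries are listed in the order Control 1, Control 2, Kat6a-cKO 1, Kat6a-cKO 2. Whether intron reads were counted is not given in the sources used here, and levels are compared between classes for 1 gene and not between genes. Differences between classes are descriptions with no test. RNA free in the droplets carried all members except Hsd11b1 at moderate levels: in barcodes of 10 to 100 UMIs the CPM was 105 to 121 for Nr3c1, 506 to 559 for Nr3c2, 141 to 186 for Fkbp5, 141 to 159 for Sgk1, 51.4 to 66.5 for Tsc22d3 and 29.5 to 48.7 for Per1.

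**Figure D1:**
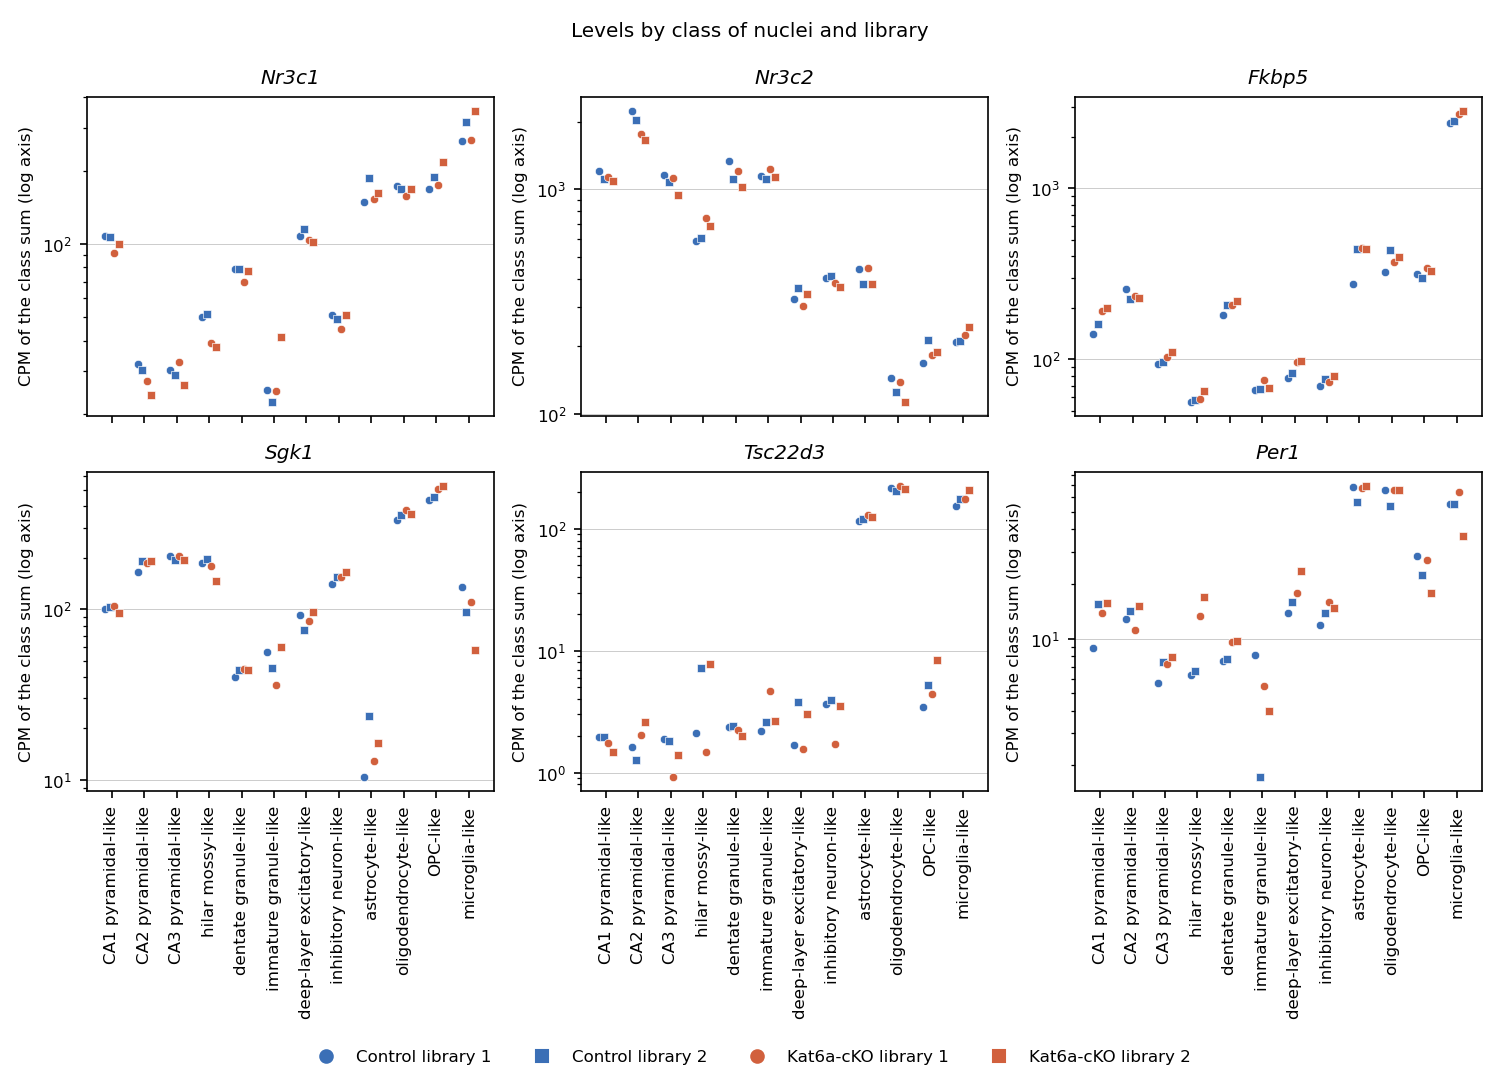
Level (CPM, log axis) of the 6 members other than Hsd11b1 in the 12 compared classes; points are the 4 libraries, coloured by group. Fkbp5 stands highest in the microglia-like class (2408 to 2818 CPM), Nr3c2 in the CA2-like class (1666 to 2226 CPM) and Sgk1 in the oligodendrocyte precursor-like class (437 to 524 CPM).

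The glucocorticoid receptor gene Nr3c1 (ENSMUSG00000024431.15; GRCm38 chromosome 18, 39410545 to 39519421, minus strand) was highest in glia and lowest in CA2-like (32.2, 30.4, 27.2 and 23.9 CPM), immature granule-like (25.1, 22.5, 24.9 and 41.4) and CA3-like neurons (30.4, 28.9, 32.6 and 26.4), whose ranges overlapped. The microglia-like class gave 264, 317, 267 and 351 CPM, and no other compared class reached those values. Oligodendrocyte precursor-like (mean 187 ± 21.8 CPM, SD, n = 4 libraries), oligodendrocyte-like (167 ± 6.76) and astrocyte-like nuclei (162 ± 16.8) followed with overlapping ranges. Among neurons the deep-layer excitatory-like class (107 ± 6.28) and the CA1-like class overlapped, and both lay above the other compared neurons. Cajal-Retzius-like neurons, too few to compare (22 to 34 nuclei per library), gave 88.0, 118, 115 and 118 CPM.

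The principal neurons differed from each other in Nr3c1. The CA1-like class gave 107, 107, 92.0 and 99.6 CPM and the dentate granule-like class 79.0, 78.5, 69.9 and 77.0 CPM, without overlap. CA3-like neurons gave 30.4, 28.9, 32.6 and 26.4 CPM, and CA2-like neurons 32.2, 30.4, 27.2 and 23.9 CPM. Within each library the CA1-like level was 2.82 to 3.77 times that of CA3-like neurons and 3.34 to 4.16 times that of CA2-like neurons. The CA3-like, CA2-like and dentate granule-like values lie under the 105 to 121 CPM of the free RNA, and the CA1-like values lie under or within that range. After thinning to 5000 UMIs per nucleus, Nr3c1 was detected in 35.7% to 39.9% of CA1-like nuclei and 10.5% to 13.7% of CA2-like nuclei. Without thinning the shares were 72.8% to 79.5% and 34.6% to 48.8%, with median depths of 17205 and 27748 UMIs. The immature granule-like class (25.1, 22.5, 24.9 and 41.4 CPM) stood under the mature granule-like class in every library.

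The mineralocorticoid receptor gene Nr3c2 (ENSMUSG00000031618.13; GRCm38 chromosome 8, 76899442 to 77245012, plus strand) showed a different order. CA2-like neurons led with 2226, 2038, 1763 and 1666 CPM, above every other compared class in all 4 libraries. Their level was 1.53 to 1.85 times that of CA1-like neurons and 1.56 to 1.92 times that of CA3-like neurons, library by library. Dentate granule-like (1331, 1109, 1204 and 1027 CPM), immature granule-like (1144, 1107, 1235 and 1129), CA1-like (1205, 1107, 1131 and 1088) and CA3-like neurons (1161, 1078, 1127 and 946) had overlapping ranges and are not told apart by their spread. Hilar mossy-like neurons gave 586, 606, 747 and 686 CPM, below all of these.

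Away from the hippocampal principal neurons Nr3c2 was lower. Astrocyte-like (410 ± 38.5 CPM) and inhibitory neuron-like nuclei (392 ± 19.6) overlapped, the deep-layer excitatory-like class followed at 333 ± 25.7, and microglia-like nuclei at 222 ± 16.6. The oligodendrocyte-like class was lowest, at 130 ± 13.9 CPM. These 5 classes and the oligodendrocyte precursor-like nuclei (168 to 214 CPM) lay under the 506 to 559 CPM of the free RNA. At 5000 UMIs per nucleus Nr3c2 was detected in 98.7% to 99.8% of CA2-like nuclei. The Nr3c2 locus overlaps 3 small annotated RNA genes, 1 of them on the same strand, and whether strand was used in counting is not given in the sources used here.

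The ratio of Nr3c2 to Nr3c1 counts set the classes apart further. Because the 2 genes differ in length (346 and 109 kb), the ratio has meaning only when compared between classes. It was 69.2, 67.1, 64.8 and 69.6 in CA2-like neurons, the highest of the 12 classes in every library. CA3-like neurons gave 38.2, 37.4, 34.6 and 35.8, immature granule-like neurons 45.6, 49.2, 49.6 and 27.3, and dentate granule-like neurons 16.8, 14.1, 17.2 and 13.3. CA1-like neurons (11.2, 10.4, 12.3 and 10.9) lay at less than every CA2-like and CA3-like value. Inhibitory neuron-like nuclei gave 7.23 to 8.58, astrocyte-like nuclei 2.03 to 2.95 and deep-layer excitatory-like neurons 2.92 to 3.36. The ratio was lowest in oligodendrocyte precursor-like (0.866 to 1.14), oligodendrocyte-like (0.674 to 0.879) and microglia-like nuclei (0.663 to 0.845).

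**Figure D2:**
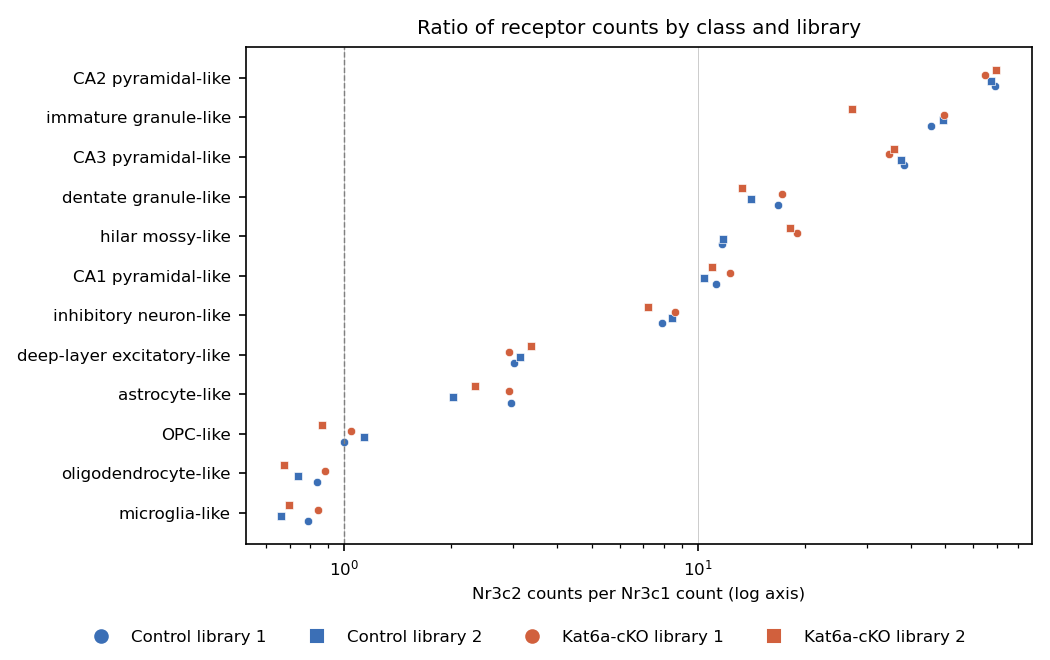
Ratio of Nr3c2 to Nr3c1 counts (log axis) in each class, 1 point per library. CA2-like neurons lie between 64.8 and 69.6 and microglia-like nuclei between 0.663 and 0.845.

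Neither receptor gene passed the test between Kat6a-cKO and Control in any class. For Nr3c1 the log2 fold changes ran from −0.37 in hilar mossy-like neurons to 0.46 in immature granule-like neurons, 4 above and 8 below 0, with a smallest edgeR adjusted p of 0.640. For Nr3c1 the 2 Kat6a-cKO values were both under the 2 Control values in 6 of 12 classes. Of the 7296 genes tested in all 12 classes, 946 (13.0%) did so in at least 6. Over all 147827 gene and class pairs the Kat6a-cKO values were both under in 21.7% and both over in 15.7%. The immature granule-like value of 0.46 rests on the last library, at 41.4 CPM against 22.5 to 25.1 in the others.

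For Nr3c2 the largest differences were in opposite directions in 2 small classes. In CA2-like neurons the Kat6a-cKO values (1763 and 1666 CPM) were under the Control values (2226 and 2038), a log2 fold change of −0.31 ± 0.07 (SE, 2 against 2 libraries, edgeR adjusted p = 0.166). In hilar mossy-like neurons both (747 and 686) lay above the Control libraries (586 and 606), a log2 fold change of 0.30 ± 0.10 (edgeR adjusted p = 0.338). In the CA2-like class 13 of 11165 genes passed (0.116%) and in the hilar mossy-like class 64 of 8958 (0.714%). The difference of the 2 changes, a comparison added after these values were seen, was −0.59 ± 0.12 on the log2 scale (edgeR adjusted p = 0.0183), where 43 of 10796 genes passed (0.398%). It lost the call without Kat6a-cKO library 1 (−0.58, edgeR adjusted p = 0.105).

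These classes held 82 to 134 CA2-like and 30 to 51 hilar mossy-like nuclei per library. Some summed marker levels also differed between the groups without overlap, and others overlapped. In CA2-like nuclei the 6 CA2 markers summed to 218, 197, 184 and 173 CPM (11.3 to 14.2 in CA3-like nuclei), the 6 CA3 markers to 3001, 2923, 2906 and 3027 (3184 to 3274 in CA3-like nuclei), the 7 CA1 markers to 256, 245, 193 and 193, and the 8 astrocyte markers to 149, 167, 219 and 259. In hilar mossy-like nuclei the 6 mossy cell markers summed to 309, 360, 268 and 242 CPM, the 6 CA3 markers to 3244, 3134, 2961 and 2944, and the 6 CA2 markers to 15.7, 11.2, 16.3 and 13.1, with Cacng5 at 0. The part of these sums in the Nr3c2 values was not tested. In the larger neuronal classes no difference in Nr3c2 was detected: the log2 fold change was −0.04 ± 0.08 in CA1-like, −0.10 ± 0.10 in CA3-like and −0.12 ± 0.11 in dentate granule-like neurons.

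Hsd11b1 (ENSMUSG00000016194.14; GRCm38 chromosome 1, 193221634 to 193264075, minus strand) encodes the enzyme that regenerates active glucocorticoid from its inert 11-keto form. It was nearly absent from these nuclei. Its largest count was in astrocyte-like nuclei, 9, 1, 3 and 7 UMIs in the 4 libraries, or 20 of 7430814 (2.69 CPM, exact 95% Poisson interval 1.64 to 4.16). CA3-like neurons held 9 UMIs (0.128 CPM, 0.0586 to 0.243), CA1-like and dentate granule-like neurons 4 each, and the inhibitory neuron-like, oligodendrocyte-like, oligodendrocyte precursor-like and microglia-like classes 1 each. The astrocyte-like interval lies above the CA3-like one; both cover counting error only.

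No Hsd11b1 UMI was seen in the CA2-like, hilar mossy-like, immature granule-like or deep-layer excitatory-like classes, where a count of 0 allows up to 0.219, 0.586, 0.660 and 0.168 CPM (3 counts of the total). A difference between the groups could not be tested at this depth in any class. The locus overlaps Lamb3 and 4930570N18Rik on the opposite strand and Gm38118 on the same strand, so that the few reads may be shared with these.

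Fkbp5 (ENSMUSG00000024222.17; GRCm38 chromosome 17, 28399094 to 28517527, minus strand) encodes the immunophilin FKBP51 and is itself induced by the glucocorticoid receptor. Its RefSeq promoter window (GRCm38.p6, chr17:28486100-28486399, minus strand, 250 bases before to 50 after the annotated start) is shown for comparison with those of Sgk1 and Per1, which are given with those genes. The capitals mark the E-box CACGTG, 169 bases before the start, the element bound by the clock factors CLOCK and BMAL1.

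Fkbp5 promoter: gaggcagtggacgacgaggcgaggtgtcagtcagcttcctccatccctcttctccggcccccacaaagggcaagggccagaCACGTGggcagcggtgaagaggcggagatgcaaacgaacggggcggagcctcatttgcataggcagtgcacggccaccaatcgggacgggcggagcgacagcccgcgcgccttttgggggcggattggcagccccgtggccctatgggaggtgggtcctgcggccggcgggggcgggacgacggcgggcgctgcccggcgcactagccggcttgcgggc

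No window of Fkbp5 held the 15-base palindromic glucocorticoid response element searched here, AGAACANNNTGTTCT, nor its half-site AGAACA on either strand, which says only that these letters are not in that window. Of 32851 windows of this length, 3 (0.00913%) held the palindrome, 6233 (19.0%) the half-site, which the palindrome contains, and 2349 (7.15%) the E-box. Windows were listed for 6 of the 7 genes, 14 in all, and 1, 4 and 3 of these held the palindrome, the half-site and the E-box. A match describes the letters and is not evidence of binding.

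Microglia-like nuclei carried Fkbp5 at 2408, 2463, 2716 and 2818 CPM, far above every other compared class. Their mean was 6.51 times that of astrocyte-like nuclei, the next class, and their level was 14.2 to 17.1 times that of CA1-like neurons in the same library. At 1000 UMIs per nucleus Fkbp5 was detected in 88.2% to 92.3% of microglia-like nuclei and in 20.9% to 32.2% of astrocyte-like nuclei (98.4% to 99.8% and 50.0% to 63.8% unthinned, at median depths of 2402 and 4000 UMIs). The free RNA stood at 141 to 186 CPM. The annotation places 4 other genes in the locus: AC154912.1 and Gm22146 on the opposite strand, whose reads cannot be told apart from those of Fkbp5 without the strand setting, and AC154912.5 and AC154912.3 on the same strand, where strand would not separate them.

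Among the other classes Fkbp5 was higher in the remaining glia than in neurons. Astrocyte-like (274, 439, 447 and 439 CPM), oligodendrocyte-like (323, 436, 368 and 397) and oligodendrocyte precursor-like nuclei (315, 300.3, 342 and 328) overlapped. CA2-like neurons led the neurons (258, 226, 234 and 228 CPM), at 2.09 to 2.76 times the CA3-like level (93.7, 96.7, 103 and 110). Dentate granule-like neurons (181, 207, 208 and 220 CPM) stood at 2.75 to 3.22 times immature granule-like neurons (65.7, 66.6, 75.5 and 68.2), a class in which Nr3c2 overlapped with the mature one. Hilar mossy-like neurons were lowest (56.6, 58.1, 58.4 and 64.8 CPM), below all 11 other classes. The CA3-like, immature granule-like and hilar mossy-like levels lay under the 141 to 186 CPM of the free RNA. So did the deep-layer excitatory-like (77.6 to 98.1 CPM) and inhibitory neuron-like levels (69.6 to 79.9). The CA1-like (141 to 199 CPM) and dentate granule-like levels overlapped with the free RNA.

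Fkbp5 was the member most often higher in Kat6a-cKO, without passing the test in any class. CA1-like neurons gave 141 and 161 CPM in Control against 191 and 199 in Kat6a-cKO, with no overlap and a log2 fold change of 0.40 ± 0.07 (SE, edgeR adjusted p = 0.117). In the CA1-like class 23 of 16704 genes passed (0.138%). The adjusted p fell under 0.05 with DESeq2 (0.40, DESeq2 adjusted p = 0.00682), with no filter on low counts (0.39, edgeR adjusted p = 0.000619) and with finer clustering (0.43, edgeR adjusted p = 0.0282). These settings also called more genes in the class: 129 of 11289, 528 of 28295 and 108 of 15650. With RLE size factors or doublets kept, Fkbp5 did not pass. Detection at 5000 UMIs per nucleus was 47.4%, 51.3%, 56.7% and 58.7%. The groups did not overlap in any of the 3 clusters of the class. The libraries gave 137, 158, 200.5 and 214 CPM in the largest, 170.02, 196, 220.2 and 230 in the next and 94.7, 95.8, 119 and 132 in the smallest. The same Control library was the lowest in all 3 clusters. The clusters are parts of the same class from the same libraries, so they are not replicates of each other. The share of all genes without overlap in all 3 clusters is not given here.

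The highest fold change after CA1-like neurons was in astrocyte-like nuclei, 0.37 ± 0.14 (edgeR adjusted p = 0.377), and it rested on Control library 1: it was 0.08 without that library and 0.70 without Control library 2 (edgeR adjusted p = 0.00612). Deep-layer excitatory-like neurons followed with 77.6 and 83.6 against 96.7 and 98.1 CPM (0.30 ± 0.11, edgeR adjusted p = 0.337). Microglia-like nuclei gave 0.22 ± 0.09 (edgeR adjusted p = 0.511) and CA3-like neurons 0.17 ± 0.07 (edgeR adjusted p = 0.643), both without overlap between groups. In CA2-like neurons the log2 fold change was −0.05 ± 0.10.

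Over the 12 classes both Kat6a-cKO libraries lay above both Control libraries for Fkbp5 in 8, and the fitted change was above 0 in 11. Of the 7296 genes tested in all 12 classes, 89 (1.22%) lay above in at least 8, and 622 (8.53%) had a fitted change above 0 in at least 11. The same 4 libraries give every class, so the classes are not replicates of each other, and Control library 1 was the lowest of the 4 in 10 of 12 classes. The 7 microglial markers, the markers of the class with the highest Fkbp5, summed to 108 and 136 CPM in Control and 97.3 and 102 in Kat6a-cKO within CA1-like nuclei. The share of mitochondrial counts was lowest in Kat6a-cKO library 2 in all 12 compared classes, and in 8 of them both Kat6a-cKO libraries lay under both Control libraries. In CA1-like neurons it was 0.0670%, 0.0780%, 0.0646% and 0.0506%, and in deep-layer excitatory-like neurons 0.0788%, 0.0805%, 0.0701% and 0.0580%. The part of either measure in the Fkbp5 values was not tested.

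Whether the Fkbp5 change differed between the principal neurons was tested directly. The change in CA3-like minus that in CA1-like neurons was −0.24 ± 0.07 on the log2 scale (edgeR adjusted p = 0.373). It was −0.31 without Control library 2, a fit that leaves Control library 1 as the lone Control. That library was the lowest for Fkbp5 in 10 of 12 classes. CA1-like minus dentate granule-like neurons gave 0.27 ± 0.06 (edgeR adjusted p = 0.148). Across all genes 28 of 16862 (0.166%) passed in the first comparison and 31 of 17912 (0.173%) in the second. CA3-like minus dentate granule-like neurons, where 23 of 17487 genes (0.132%) passed, gave 0.00 ± 0.07 for Fkbp5.

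**Figure D3:**
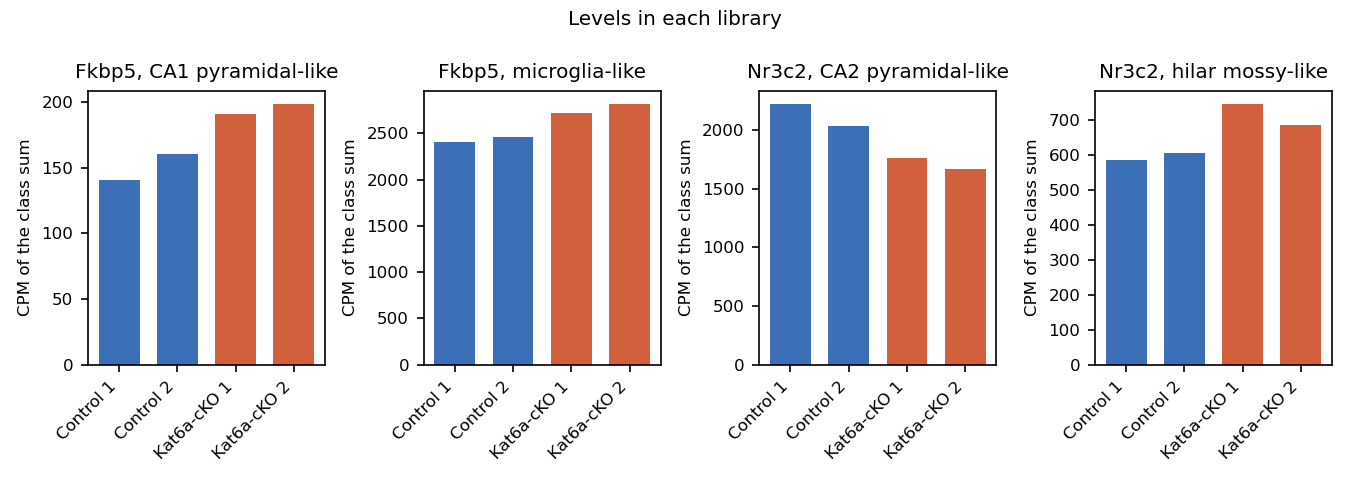
Level (CPM of the class sum) in each of the 4 libraries, bars coloured by group, for Fkbp5 in CA1-like and microglia-like nuclei and Nr3c2 in CA2-like and hilar mossy-like neurons. The groups do not overlap in these 4 pairs: Fkbp5 is higher in Kat6a-cKO in both classes, and Nr3c2 is lower in CA2-like and higher in hilar mossy-like neurons; none passed after adjustment.

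Sgk1 (ENSMUSG00000019970.15; GRCm38 chromosome 10, 21882184 to 21999903, plus strand) encodes a kinase induced by both corticosteroid receptors. RefSeq lists 6 promoter windows for it. The window shown (GRCm38.p6, chr10:21993640-21993939, plus strand) is 1 of only 3 in the genome-wide table with the palindromic response element; the others belong to Acnat2 and Gm35041. The capitals mark this element, which begins 189 bases before the start. The same window also holds an E-box, left in lower case.

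Sgk1 promoter: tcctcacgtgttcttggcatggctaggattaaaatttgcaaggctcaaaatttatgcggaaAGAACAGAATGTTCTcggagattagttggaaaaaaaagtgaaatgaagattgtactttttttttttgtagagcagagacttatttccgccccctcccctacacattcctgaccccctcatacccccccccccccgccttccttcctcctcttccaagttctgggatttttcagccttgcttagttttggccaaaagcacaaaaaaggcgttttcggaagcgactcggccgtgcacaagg

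The highest Sgk1 levels were in the oligodendrocyte lineage, and astrocyte-like nuclei were lowest. Oligodendrocyte precursor-like nuclei gave 437, 454, 503 and 524 CPM, and oligodendrocyte-like nuclei 335, 354, 382 and 359, with no overlap with any other compared class. CA3-like neurons led the neurons (204, 194, 205 and 195 CPM), followed by CA2-like (165, 192, 187 and 193) and hilar mossy-like neurons (185, 198, 179 and 147), which overlap. The CA3-like level was 1.87 to 2.05 times that of CA1-like neurons (100.2, 104, 105 and 95.2 CPM) and 4.41 to 5.13 times that of dentate granule-like neurons (39.8, 44.0, 44.3 and 43.9). Astrocyte-like nuclei gave 10.4, 23.6, 12.9 and 16.5 CPM, and like the CA1-like and dentate granule-like neurons they lay under the 141 to 159 CPM of the free RNA.

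Sgk1 also varied inside classes, and in CA3-like neurons it did so in the opposite direction to Nr3c2. The larger of the 2 CA3-like clusters gave 229, 228, 241 and 221 CPM for Sgk1 and the smaller 57.4, 53.0, 52.1 and 63.6. For Nr3c2 the larger gave 1064, 951, 1015 and 848 CPM and the smaller 1730, 1606, 1608 and 1437. Both genes kept the clusters apart in every library. The smaller cluster also had more Fkbp5, at 184, 159, 158 and 176 against 78.4, 81.8, 89.6 and 96.4 CPM.

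The 5 dentate granule-like clusters showed a similar spread. Sgk1 was highest (92.6, 103, 115 and 98.1 CPM) in the cluster with the lowest Nr3c2 (727, 672, 675 and 614), and lowest (18.8, 22.1, 25.6 and 21.1) in the cluster with the highest Nr3c2 (1393 to 1882). Among the 3 CA1-like clusters Sgk1 was highest (130, 137, 131 and 122 CPM) where Nr3c2 was lowest (925, 907, 916 and 876). The 3 inhibitory neuron-like clusters with at least 30 nuclei in every library did not show this order: the cluster with the highest mean Sgk1 (190 CPM) also had the highest mean Nr3c2 (642), and that with the lowest Sgk1 (135) the lowest Nr3c2 (243). By the cluster means, Sgk1 spanned 4.06 times among CA3-like and 4.67 times among dentate granule-like clusters, against 1.64 and 2.40 times for Nr3c2. The spans were 1.67 and 1.54 times among CA1-like and 1.83 and 1.48 times among deep-layer excitatory-like clusters, and among inhibitory neuron-like clusters Nr3c2 spanned more (2.65 times) than Sgk1 (1.41 times). The clusters come from the same counts, although not from these genes, and no test was made.

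**Figure D4:**
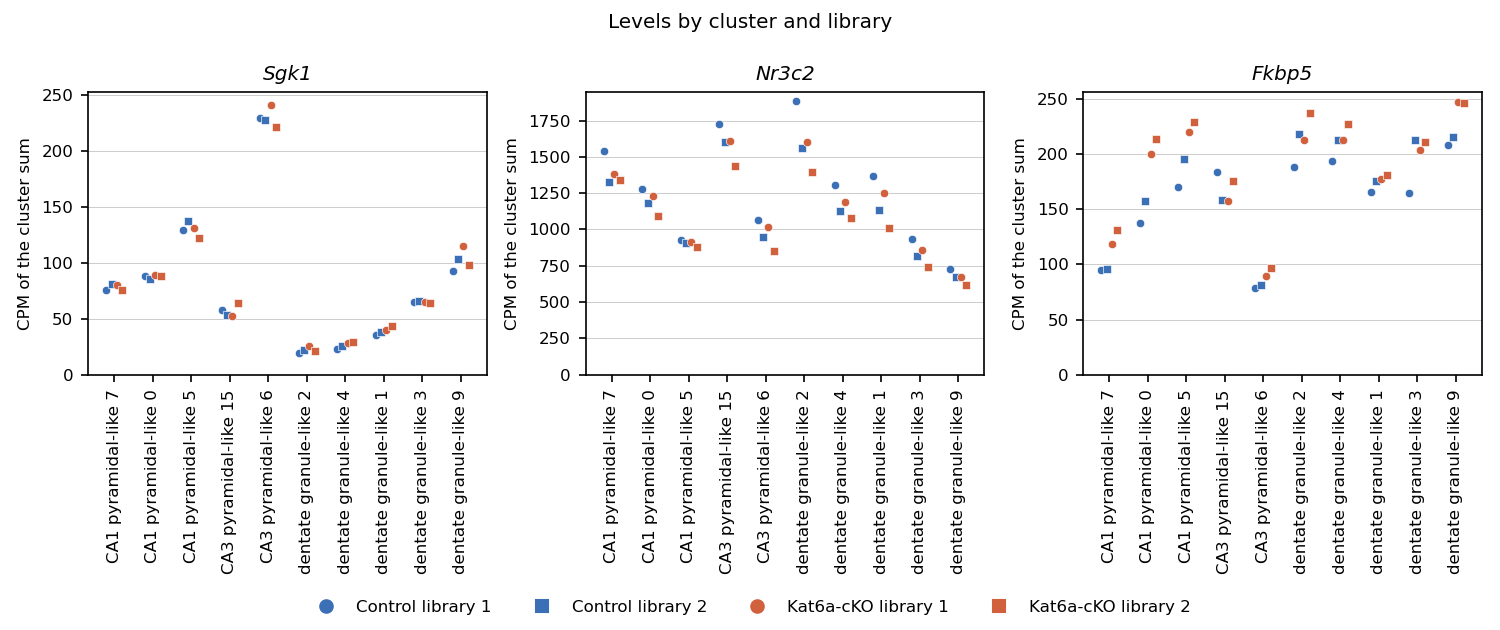
Levels of Nr3c2, Sgk1 and Fkbp5 (CPM) in the clusters of the CA1-like, CA3-like and dentate granule-like classes, 1 point per library, coloured by group. In CA3-like neurons the cluster with Sgk1 at 221 to 241 CPM has Nr3c2 at 848 to 1064 CPM, and that with Sgk1 at 52.1 to 63.6 CPM has Nr3c2 at 1437 to 1730 CPM.

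Between groups Sgk1 passed the test in no class. Its lowest edgeR adjusted p, 0.565, was in oligodendrocyte precursor-like nuclei, where both Kat6a-cKO libraries (503 and 524 CPM) lay above both Control libraries (437 and 454), a log2 fold change of 0.23 ± 0.10. The class had 20 of 9727 genes past the threshold (0.206%). In CA3-like neurons the log2 fold change was 0.02 ± 0.08 and in CA1-like neurons 0.00 ± 0.08. The largest difference in size, −0.36 ± 0.23 in microglia-like nuclei (134, 96.5, 110.5 and 57.5 CPM), rested on overlapping groups.

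Tsc22d3 (ENSMUSG00000031431.13; GRCm38 chromosome X, 140539528 to 140600659, minus strand), which encodes the glucocorticoid-induced leucine zipper GILZ, was far higher in 3 glial classes than in the compared neurons. Oligodendrocyte-like nuclei gave 216, 204, 222 and 212 CPM, microglia-like nuclei 154, 174, 177 and 207, and astrocyte-like nuclei 116, 120, 129 and 125. The first 2 classes overlapped, and astrocyte-like nuclei lay below both. Endothelial-like nuclei, 13 to 47 per library and not compared, gave 114, 167, 119 and 295 CPM. Oligodendrocyte precursor-like nuclei gave 3.48 to 8.45 CPM.

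The compared neuronal classes lay at 0.925 to 7.72 CPM for Tsc22d3 and Cajal-Retzius-like neurons at 3.14 to 10.3, like the oligodendrocyte precursor-like class below the 51.4 to 66.5 CPM of the free RNA, so that these low levels are not told apart from background. At 1000 UMIs per nucleus the gene was detected in 17.2% to 19.3% of oligodendrocyte-like and 0.373% to 0.949% of oligodendrocyte precursor-like nuclei (45.3% to 49.6% and 1.92% to 3.62% unthinned, at median depths of 3317 and 5017 UMIs). Between the groups the 8 classes with enough counts gave log2 fold changes from −0.66 ± 0.33 in CA3-like neurons to 0.25 ± 0.13 in microglia-like nuclei, and none passed (smallest edgeR adjusted p = 0.635). In the CA3-like class 2 of 15284 genes passed (0.0131%). In the oligodendrocyte-like class, with the most Tsc22d3, the change was 0.06 ± 0.11, and 1 of 11596 genes passed (0.00862%).

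Per1 (ENSMUSG00000020893.17; GRCm38 chromosome 11, 69095217 to 69109960, plus strand) is a gene of the circadian clock that glucocorticoids and neuronal activity also induce. The first of its 2 RefSeq windows (GRCm38.p6, chr11:69098699-69098998, plus strand) holds an E-box, in capitals, 166 bases before the start, and neither window holds the palindromic response element.

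Per1 promoter: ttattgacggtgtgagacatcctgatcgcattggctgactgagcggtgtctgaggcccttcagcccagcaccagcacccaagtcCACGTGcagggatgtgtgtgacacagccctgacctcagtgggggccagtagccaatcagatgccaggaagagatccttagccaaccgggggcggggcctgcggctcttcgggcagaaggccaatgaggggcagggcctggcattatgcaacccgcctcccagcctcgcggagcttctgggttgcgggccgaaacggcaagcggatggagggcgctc

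Among the compared classes glia had the most Per1. Astrocyte-like nuclei gave 68.5, 56.6, 67.4 and 69.0 CPM, and they overlapped with oligodendrocyte-like (53.8 to 66.3) and microglia-like nuclei (36.8 to 64.2). Oligodendrocyte precursor-like nuclei lay at 17.8 to 28.6 CPM. The compared neuronal classes stayed at or under 23.5 CPM, below the free RNA at 29.5 to 48.7 CPM, and each overlapped with its neighbour in the order. The classes too small to compare reached higher: Cajal-Retzius-like neurons gave 34.6, 15.4, 36.8 and 21.9 CPM from 3 to 11 UMIs per library, and endothelial-like nuclei 171, 111, 104 and 60.8 CPM. Per1 did differ among CA1-like clusters, with 16.1, 36.7, 31.7 and 26.4 CPM in the smallest and 6.72 to 14.0 in the largest.

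Per1 had 3 classes with an unadjusted edgeR p under 0.05 and no overlap between groups, all higher in Kat6a-cKO and none past the adjusted threshold. Over all 147827 gene and class pairs 8.37% had such a p, and 15.7% had both Kat6a-cKO libraries above both Control libraries. The share of all genes with at least 3 such classes was not taken. Hilar mossy-like neurons gave 6.29 and 6.61 CPM in Control against 13.3 and 17.0 in Kat6a-cKO (log2 fold change 1.25 ± 0.41, edgeR adjusted p = 0.313). These rest on few Per1 UMIs, in class sums of 954519 and 1513844 UMIs in Control and 1353133 and 1295869 in Kat6a-cKO. All lay under the 29.5 to 48.7 CPM of the free RNA. The low-count filter needs its minimum in only 2 libraries. At its default, both Control libraries fell short of this minimum and both Kat6a-cKO libraries met it. Per1 thus entered the hilar mossy-like test only through the group where it is higher, so this fold change and its p are no support for a difference. Dentate granule-like neurons gave 7.55 and 7.73 against 9.57 and 9.75 CPM (0.35 ± 0.11, edgeR adjusted p = 0.307), in a class where 71 of 17321 genes passed (0.41%). Deep-layer excitatory-like neurons gave 13.9 and 15.9 against 17.7 and 23.5 CPM (0.49 ± 0.20, edgeR adjusted p = 0.459), where 59 of 12209 passed (0.483%). The fitted change was above 0 in 8 of the 11 classes tested, all from the same 4 libraries, and the share of all genes that did so was not taken.

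The immediate early genes, which neuronal activity induces within minutes, are given beside Per1. Of the 16 listed, 9 had enough counts to test in hilar mossy-like and 11 in deep-layer excitatory-like neurons. In hilar mossy-like neurons 9 of the 9 tested had a fitted change above 0, with a median of 0.47 on the log2 scale. In deep-layer excitatory-like neurons 9 of 11 had, with a median of 0.41. None passed, and the median over all genes was 0.00 in both classes. The low-count filter can keep a gene through the group where it is higher, as it did for Per1 in hilar mossy-like neurons. The counts above 0 can therefore be raised by the filter, and they are no support for a rise of the list. The part of the filter in these counts was not tested. In CA1-like neurons 15 of 16 were above 0 (median 0.45, against 0.00 for all genes), none passed, and Per1 gave 0.31 ± 0.21 (8.82, 15.5, 13.9 and 15.6 CPM), or −0.02 without Control library 1. Of this list Arc had the lowest p in CA1-like neurons (7.08 and 12.1 against 20.6 and 20.5 CPM, 1.12 ± 0.20, edgeR adjusted p = 0.116). In dentate granule-like neurons 11 of 16 were above 0 (median 0.08, against 0.00 for all genes) and Jun fell (35.0 and 37.4 against 25.2 and 23.9 CPM, −0.55 ± 0.08, edgeR adjusted p = 0.0335). Of the 71 genes that passed in the dentate granule-like class, 67 were lower and 4 higher in Kat6a-cKO. In the 8 other classes together 40 of 83 were above 0, with class medians from −0.14 to 0.17. The mitochondrial share was 0.0705% and 0.0927% in Control against 0.0523% and 0.0488% in Kat6a-cKO in hilar mossy-like neurons. It was 0.0788% and 0.0805% against 0.0701% and 0.0580% in deep-layer excitatory-like and 0.146% and 0.165% against 0.139% and 0.121% in dentate granule-like neurons. The part of these measures in the Per1 values was not tested.

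Taking the 7 genes as a list, 67 member and class pairs could be tested, 0 passed the adjusted threshold and 11 (16.4%) had an unadjusted edgeR p under 0.05. Over all genes 12366 of 147827 pairs (8.37%) did so. The members and the lists that follow were chosen with earlier results of these data known, so their shares are no test against all genes. Per class, the share of all genes that passed was 0.182% in immature granule-like, 0.0272% in inhibitory neuron-like and 0.369% in astrocyte-like nuclei, and 0.0% in microglia-like nuclei (0 of 9987 by edgeR, 877 with an unadjusted p under 0.05, and 0 by DESeq2). Of the 11 member pairs, 5 were of Fkbp5, 3 of Per1, 2 of Nr3c2 and 1 of Sgk1. The Per1 pair in hilar mossy-like neurons entered its test through the Kat6a-cKO libraries alone.

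**Figure D5:**
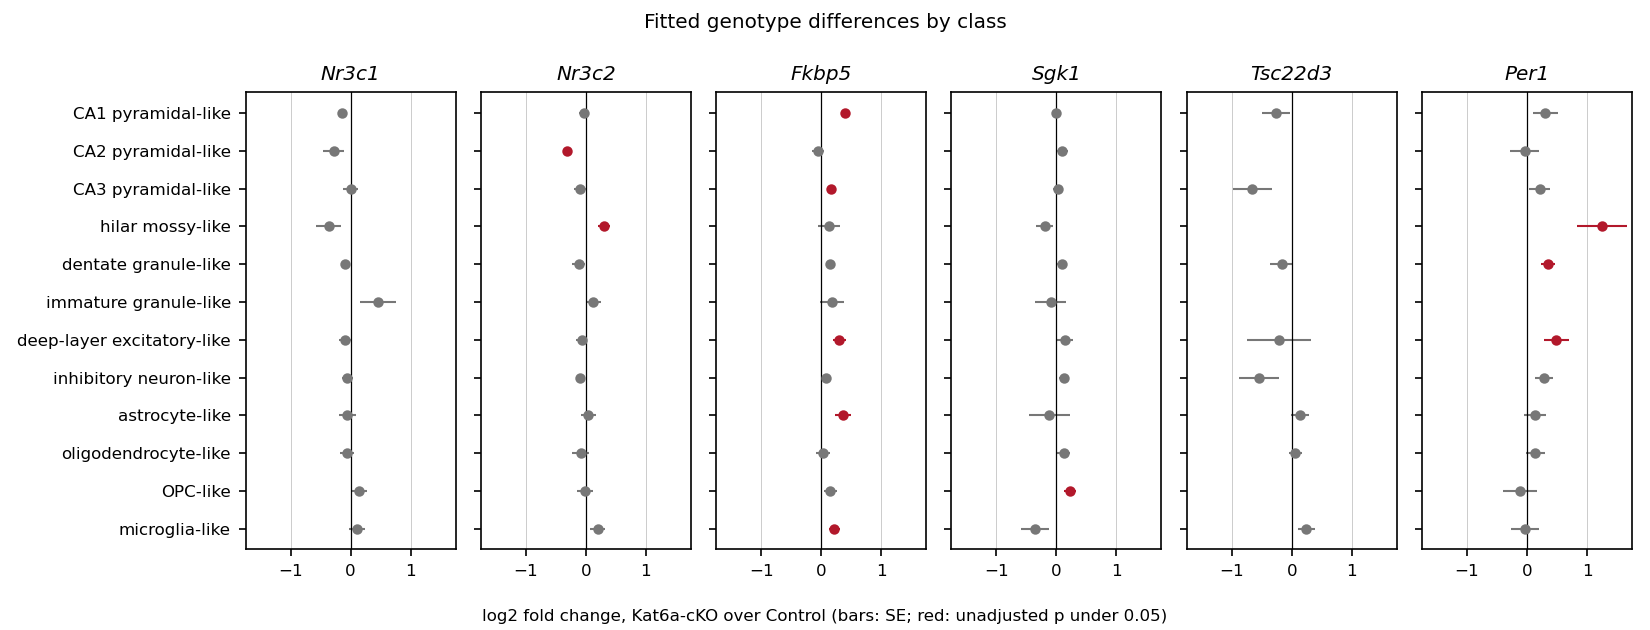
Log2 fold change, Kat6a-cKO over Control, of 6 members in the classes tested (edgeR estimate, bars 1 SE, red where the unadjusted p is under 0.05). Fkbp5 lies above 0 in 11 of 12 classes, from −0.05 in CA2-like to 0.40 in CA1-like neurons.

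The other genes of the pathway also showed few called changes. Of the 28 glucocorticoid-induced genes outside the members, 224 gene and class pairs could be tested. None passed in either direction, 28 (12.5%) had an unadjusted edgeR p under 0.05, and 93 were fitted above 0. The lowest p in this list were those of Rhob, a small GTPase gene (17.1 and 19.7 against 12.6 and 13.2 CPM, −0.49 ± 0.10, edgeR adjusted p = 0.0886), and Cebpd, a transcription factor gene (18.6 and 19.4 against 14.4 and 12.9 CPM, −0.46 ± 0.10, edgeR adjusted p = 0.116), both in dentate granule-like neurons. Most genes that passed in this class were lower in Kat6a-cKO (67 of 71). The median of the list in CA1-like neurons, where Fkbp5 gave 0.40, was −0.07 on the log2 scale, with 11 of 23 above 0.

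The receptor chaperones and immunophilins, which hold the unliganded receptor ready for hormone, had 1 gene past the threshold in 143 tests. Hsp90ab1, an HSP90 gene, was lower in the Kat6a-cKO astrocyte-like nuclei (294 and 388 against 196 and 234 CPM, −0.63 ± 0.13, edgeR adjusted p = 0.0114). The call was lost with DESeq2 (−0.61, DESeq2 adjusted p = 0.618), with doublets kept (edgeR adjusted p = 0.0849), with the large glial barcodes kept (0.151), without Control library 2 (0.356) and without Kat6a-cKO library 1 (0.336). Of the 143 tests 37 were fitted above 0 and 31 (21.7%) had an unadjusted edgeR p under 0.05. The list's median lay between −0.25 and −0.04 on the log2 scale over the 12 classes. Among all genes that passed in the astrocyte-like class (40), 33 were lower and 7 higher in Kat6a-cKO. The mitochondrial share in astrocyte-like nuclei was 0.186%, 0.214%, 0.181% and 0.147%, and they are among the 8 classes where both Kat6a-cKO libraries had less; its part in the chaperone values was not tested. Of the 70 tests of mineralocorticoid effectors, genes of sodium transport, 16 (22.9%) had an unadjusted edgeR p under 0.05.

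No gene passed in the 4 remaining lists, and genes with the lowest p are named. Of the 144 tests of receptor coregulators 8 (5.56%) had an unadjusted edgeR p under 0.05, led by the corepressor gene Nrip1 in deep-layer excitatory-like neurons (log2 fold change 0.44 ± 0.15, edgeR adjusted p = 0.305) and the coactivator gene Ncoa3 in astrocyte-like nuclei (0.43 ± 0.17, edgeR adjusted p = 0.448). Of the 44 tests of genes of steroid availability and the hypothalamus-pituitary-adrenal axis 4 (9.09%) did, led by the drug and steroid exporter genes Abcb1a (2.49 and 2.45 against 3.89 and 3.87 CPM, 0.66 ± 0.16, edgeR adjusted p = 0.148) and Abcb1b (0.34 ± 0.11, edgeR adjusted p = 0.299) in dentate granule-like neurons. Of the 91 tests of close relatives of the members 5 (5.49%) did, among them the immunophilin gene Fkbp4 in oligodendrocyte-like nuclei (12.5 and 20.1 against 8.78 and 10.1 CPM, −0.76 ± 0.28, edgeR adjusted p = 0.466).

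Of the 175 tests of other circadian clock genes 14 (8.0%) had an unadjusted edgeR p under 0.05. In the clock list the lowest p was that of Npas2, a paralog of Clock, in deep-layer excitatory-like neurons (105 and 105 against 152 and 134 CPM, 0.48 ± 0.11, edgeR adjusted p = 0.0873), and its fitted change was above 0 in 11 of 11 classes. The same 4 libraries give every class, and the share of all genes with such a count was not taken. Next was Bhlhe41, a repressor gene, in CA3-like neurons (7.82 and 6.92 against 4.11 and 4.32 CPM, −0.79 ± 0.18, edgeR adjusted p = 0.233). Of the immediate early genes 1 of 135 tests passed, that of Jun, and 16 (11.9%) had an unadjusted edgeR p under 0.05.

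The genes whose mean levels followed each member most closely over the 12 classes are given as a description. The classes share libraries, and neuronal and glial classes differ in depth (minimums of 5000 and 1000 UMIs per nucleus). For Fkbp5 they were Rnf167 (Pearson r = 0.978) and Med7 (0.977), and for Nr3c2 Ptpn3 (0.938) and Dnah9 (0.933). Nr3c1 was followed by Nbn (0.927) and Fkbp2 (0.923), and Tsc22d3 by Pon2 and Selenop (both 0.982). Sgk1 had the least close pair, Mthfd1l (0.836) and Sulf2 (0.806), and Per1 was followed by Pttg1 (0.945) and Ndufa12 (0.943). These were chosen among 9547 genes.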

How the data were processed

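The authors deposited 1 table of raw UMI counts per library, of all barcodes, with Ensembl gene identifiers. Mouse build mm10 and Seurat 4.0.1 are named in the submitters' processing notes, with no role; the aligner is not given in the sources used here. Symbols and positions came from GENCODE M21, and promoters from RefSeq. Barcodes of at least 5000 UMIs (neurons), or 1000 to under 10000 (glia and vessels; the maximum was set after seeing the data), were freed of doublets with Scrublet and clustered with scanpy 1.11.5 and leidenalg 0.10.2 (resolution 1), leaving out 173 genes: the members and lists, mitochondrial genes and a few others, among them Kat6a, Neurod6, the Cre entry and sex-specific genes. Clusters were named from marker lists; 2541 of 31465 nuclei in the neuronal set stayed unnamed. Counts were summed per class and library and tested with edgeR 4.0.16 (quasi-likelihood, TMM, filterByExpr, R 4.3.3) with Benjamini-Hochberg adjustment over all genes of a class, threshold 0.05. Differences between classes used 1 fit with libraries as a block. DESeq2 1.42.0, other size factors, no filter, doublets kept, resolution 2, a stricter UMI minimum, kept large glial barcodes and left-out libraries were the alternatives. The fit was tested on simulated data. Intervals and floors cover counting error only. Besides the members, the text names genes that passed, or otherwise the 2 with the lowest p in a list, and the 2 genes most like each member by Pearson correlation of log2(CPM + 1). Members and lists were chosen with earlier results of these data known. Results for a few list genes that the rule would name are not reported here.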

Additional observations from a re-analysis of the deposited data

Results flagged for a closer look

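A test of the difference between classes in the change from Control to Kat6a-cKO passed the threshold for 3 genes among the 7 members and the immediate early genes. The members gave 24 values in such differences, and the number given by the immediate early genes was not taken. Of all genes, 43 of 10796 (0.398%) passed for CA2-like minus hilar mossy-like neurons. The shares were 0.173% for CA1-like minus dentate granule-like, 0.132% for CA3-like minus dentate granule-like and 0.166% for CA3-like minus CA1-like neurons. For Nr3c2 the change in CA2-like minus that in hilar mossy-like neurons was −0.59 ± 0.12 on the log2 scale (SE, edgeR adjusted p = 0.0183), from −0.31 in the first class and 0.30 in the second. This comparison was chosen after both opposite values were seen, so its p is not independent of that choice, and the call was lost without Kat6a-cKO library 1 (−0.58, edgeR adjusted p = 0.105). For the immediate early gene Arc the change in CA1-like minus that in dentate granule-like neurons was 1.45 ± 0.20 (edgeR adjusted p = 0.0129), with 7.08, 12.1, 20.6 and 20.5 CPM in CA1-like and 1.36, 2.40, 1.30 and 1.73 CPM in dentate granule-like neurons. The call was lost with doublets kept (0.97, edgeR adjusted p = 0.138), with Leiden resolution 2 (0.91, 0.155), without Control library 1 (1.42, 0.130) and without Kat6a-cKO library 1 (1.20, 0.148). For Jun the change in CA3-like minus that in dentate granule-like neurons was 0.72 ± 0.14 (edgeR adjusted p = 0.0449), with 6.81, 9.47, 9.31 and 9.11 CPM in CA3-like and 35.0, 37.4, 25.2 and 23.9 CPM in dentate granule-like neurons. That call was lost with doublets kept (0.64, edgeR adjusted p = 0.106), with Leiden resolution 2 (0.67, 0.104) and without Control library 1 (0.62, 0.0565).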

How the results depend on the processing

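For 15 log2 fold changes of Fkbp5, Nr3c2, Per1 and Sgk1 (the 11 class values with an unadjusted edgeR p under 0.05 and 4 differences between classes) 145 alternative values were made: 0 changed sign, 12 newly passed and 1 lost the threshold. Over all 67 member and class pairs tested, 28 changed sign under at least 1 alternative, and of 24 member values in the differences between classes 13 did. The number of members past it was 1 in place of 0 in CA1-like neurons with DESeq2, no filter on low counts or Leiden resolution 2 (Fkbp5 each time), in CA2-like neurons with no filter (Nr3c2, −0.29), and in the CA1-like minus dentate granule-like difference with no filter (Fkbp5, 0.27). Leaving out 1 library gave 0 to 1 members in CA2-like and astrocyte-like nuclei and in the CA3-like minus CA1-like and CA2-like minus hilar mossy-like differences.

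Counts of all genes past the threshold moved more than those of members. DESeq2 called 129 in CA1-like, 27 in CA3-like, 231 in dentate granule-like, 0 in immature granule-like, 13 in inhibitory neuron-like, 0 in astrocyte-like, 3 in oligodendrocyte-like and 1 in oligodendrocyte precursor-like nuclei, and RLE size factors 6 in CA3-like neurons. Without the filter the counts were 528 in CA1-like, 113 in CA2-like, 299 in CA3-like, 563 in dentate granule-like, 174 in hilar mossy-like, 81 in immature granule-like, 301 in deep-layer excitatory-like, 140 in inhibitory neuron-like and 126 in oligodendrocyte-like nuclei, and 185, 85, 276 and 114 for the differences CA3-like minus CA1-like, CA3-like minus dentate granule-like, CA1-like minus dentate granule-like and CA2-like minus hilar mossy-like. With doublets kept they were 8 in astrocyte-like, 10 in oligodendrocyte precursor-like and 11 in microglia-like nuclei and 53 for CA1-like minus dentate granule-like. Leiden resolution 2 gave 108 in CA1-like, 2 in CA2-like, 0 in inhibitory neuron-like and 26 in astrocyte-like nuclei, and 55, 14 and 77 for the first 3 differences. Keeping glial barcodes of 10000 UMIs or more gave 0 in oligodendrocyte precursor-like and 8 in microglia-like nuclei.

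Leaving out 1 library at a time gave 80 to 194 genes in CA1-like, 20 to 87 in CA2-like, 3 to 315 in CA3-like, 42 to 439 in dentate granule-like, 92 to 155 in hilar mossy-like, 7 to 201 in immature granule-like, 33 to 198 in deep-layer excitatory-like, 24 to 134 in inhibitory neuron-like, 16 to 42 in astrocyte-like, 32 to 154 in oligodendrocyte-like, 15 to 37 in oligodendrocyte precursor-like and 0 to 80 in microglia-like nuclei. For the 4 differences the ranges were 44 to 234, 37 to 202, 13 to 88 and 68 to 98. Each such fit leaves 1 group with a lone library, assumed to vary like the other group. The causes of these moves were not tested.

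The labels number the libraries in both groups but do not say that a number pairs them, and there are only 2 pairs. Deviations of same-numbered libraries from their group means correlated at 0.0217 to 0.206 over the 12 classes. A replicate block called 1 member in CA1-like (Fkbp5, 0.40), CA2-like (Nr3c2, −0.31) and astrocyte-like nuclei (Fkbp5, 0.39). It called 303 genes in CA1-like, 153 in CA2-like, 290 in CA3-like, 206 in dentate granule-like, 0 in immature granule-like, 168 in deep-layer excitatory-like, 7 in inhibitory neuron-like, 195 in astrocyte-like, 355 in oligodendrocyte-like, 54 in oligodendrocyte precursor-like and 98 in microglia-like nuclei.

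Of 72 mean levels, 68 moved by less than 1 SD under stricter UMI minimums of 10000 for neurons and 2000 for glia; the largest ratio was 2.07, for Per1 in immature granule-like neurons. Depth limits Hsd11b1 and neuronal Tsc22d3 and Per1, and 2 libraries per group limit every test.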

Other observations

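Mature and immature granule-like neurons had overlapping levels of Nr3c2. The mature over immature ratio was 0.910 to 1.16 for Nr3c2, 1.86 to 3.49 for Nr3c1 and 2.75 to 3.22 for Fkbp5, per library. Of the 9 clusters of the neuronal set that no marker list named, 5 had at least 30 nuclei in every library. These 5 spanned mean Nr3c2 levels of 149 to 1128 CPM and mean Sgk1 levels of 58.9 to 312 CPM, with the lowest Nr3c2 and the highest Sgk1 in the same cluster. That cluster also had the highest Tsc22d3 of the 5, at 28.2 CPM; all 8 oligodendrocyte markers were raised in it, and Tcf7l2, Bcas1 and Enpp6 were among its leading genes. It stayed unnamed because its leading genes held more markers of committed oligodendrocyte precursors.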
